A study of Mus musculus with 4 samples.

Results

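Neural adhesion molecules of the immunoglobulin superfamily were examined in neurospheres carrying mutations of Dll1, the gene of the Notch ligand Delta-like 1. The set was the contactins Cntn1 and Cntn2, the neural cell adhesion molecules Ncam1 and Ncam2, the L1 family (L1cam, Chl1, Nrcam and Nfasc), and Alcam. Members were the probes that carry one of these 9 names in the scan files. That rule found 24 probes of 8 genes among 41174 gene probes, and 22 of the 24 probes passed the background filter, as did 34446 probes of all genes. The ninth gene, Nrcam, has 3 probes under the file name C130076O07Rik, which the RefSeq gene table pairs with Nrcam by accession and synonym. These probes fall outside the rule, so Nrcam is described beside the 8 genes and left out of their counts.

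Neurospheres are floating clusters of cells grown from neural stem cells. Dll1-5 mutant and Dll1-3 mutant lines were each compared with wild-type neurospheres. All came from 129/Sv mice crossed with C57BL/6 and were kept without serum in medium supplemented with EGF, a growth factor that keeps such cells dividing. The labels of the wild-type RNA name the same line as the mutant RNA on its array, and neither they nor the files used here state which part of Dll1 is mutated. Each mutant line was hybridised against wild-type RNA on 2 two-colour Agilent arrays with the dyes exchanged, so the data are 4 arrays of 2 lines, and each line counted as 1 sample. RNA of 3 preparations was pooled per line, and the design text describes each pool as dye-swapped. The spread within a line was therefore taken as technical, although the labels do not state that both arrays of a line hold the same extract.

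In each channel of each array, 80% to 82.1% of probes exceeded background clearly. Dll1 gave normalised signals of 2179 and 2216 in Dll1-5 RNA and 634 and 718 in Dll1-3 RNA, against 6307 to 6906 in wild-type RNA on the 4 arrays. It was thus lower in the mutant RNA of both lines, and lower in Dll1-3 than in Dll1-5. Signals here are intensities after background correction, to which a constant of 50 was added, and dye and array normalisation; the level of one probe cannot be set against that of another. The log2 ratio of mutant over wild-type RNA is given for each array, and a line mean is followed by the distance of its 2 arrays from it.

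These adhesion molecules are cell surface proteins with immunoglobulin domains that bind their own kind or other family members on neighbouring cells. Members of the L1 family cross the membrane and attach to the spectrin skeleton through ankyrins, while the contactins are held by a lipid anchor. In neural tissue they are known for axon growth and bundling, cell migration and the contacts between axons and myelinating glia.

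Across the 9 genes, Cntn1 was far lower in the mutant RNA of both lines. Ncam1, Nrcam, Ncam2 and Alcam had lower signals at their brightest probe on all 4 arrays, by smaller amounts. Cntn2, L1cam and Nfasc stayed within 0.18 of 0 in both line means at the brightest probe. Chl1 went opposite ways in the 2 lines. With 2 lines, no gene on the array reached an adjusted p under 0.05 (limma, Benjamini-Hochberg over 23106 genes; 0%), and no member did. At an unadjusted p under 0.05, which 27.5% of all genes had in either direction, 3 of the 8 member genes were lower (Cntn1, Ncam1 and Ncam2), where 15.5% of all genes were, and none was higher, where 12% of all genes were. All 4 arrays were below 0 for 4 of the 8 genes, Alcam being the additional one, against 26% of all genes.

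**Figure D1:**
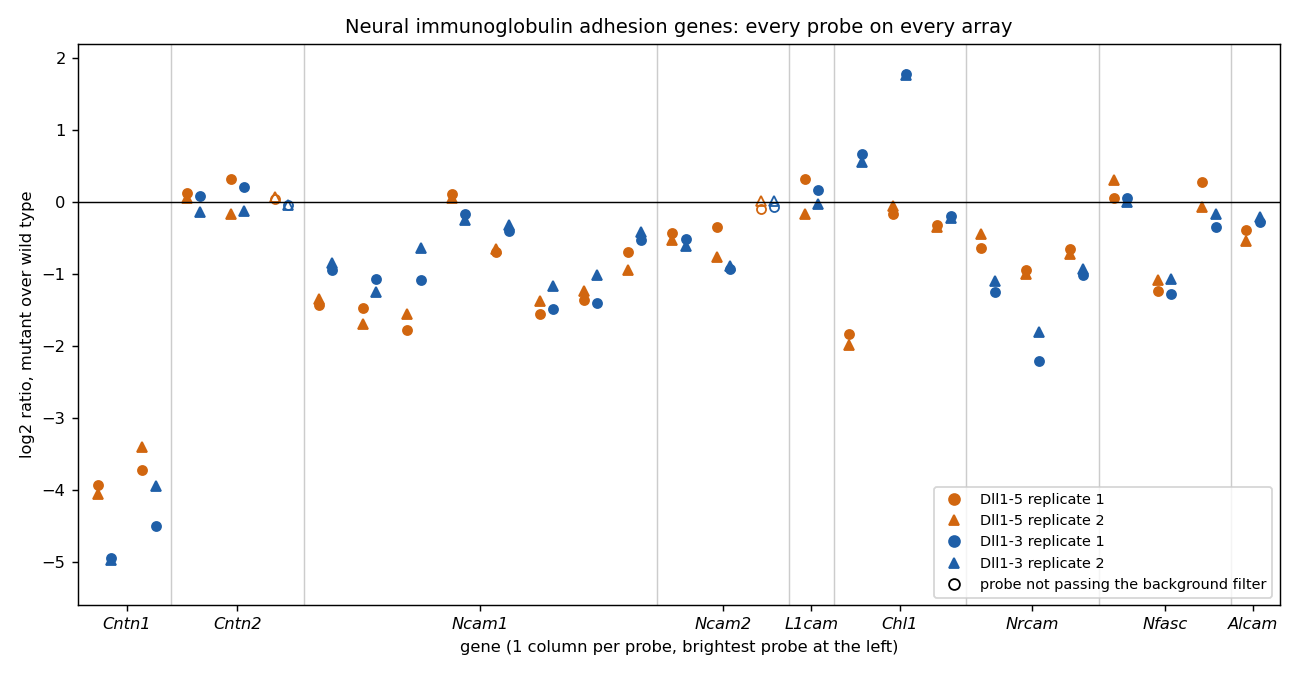
The log2 ratio of mutant over wild-type RNA is plotted for every probe of the 9 genes on every array, with 1 column per probe, line by colour and replicate by symbol. Both Cntn1 probes lie between -4.98 and -3.40, the 2 brightest Chl1 probes split by line, and 7 of the 8 Ncam1 probes lie below 0 on all 4 arrays.

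Cntn1 encodes contactin-1, an axonal and glial surface protein that forms the paranodal junction with its partner Caspr and has been reported as a ligand of Notch on oligodendrocyte precursors. Its brighter probe (A_51_P101763, RefSeq NM_007727, chr15:92407686-92407745 in the array annotation, whose build the files do not name) gave mutant signals of 273 and 277 in Dll1-5 and 139 and 146 in Dll1-3. The wild-type signals were 4167 and 4606 beside Dll1-5 and 4296 and 4591 beside Dll1-3. Every mutant value therefore lay below every wild-type value, with Dll1-3 the lower of the lines. The log2 ratios were -3.93 and -4.06 in Dll1-5 (mean -3.99 ± 0.06) and -4.95 and -4.98 in Dll1-3 (mean -4.96 ± 0.01). Over both lines the mean was -4.48 ± 0.69 (SD, n = 2 lines), so that the wild-type signal was 22.3-fold the mutant one, 15.9-fold in Dll1-5 and 31.2-fold in Dll1-3. This was the eighth lowest mean of 23106 genes. Mean ratios at least 16-fold below wild type were found for 0.0736% of genes.

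The second Cntn1 probe lies 1.41 kb further downstream, where the array annotation gives a cDNA entry (AK045612). It read 129 and 191 in Dll1-5 and 68.6 and 123 in Dll1-3, against wild-type signals of 1714 and 2020 beside Dll1-5 and 1553 and 1894 beside Dll1-3. Its line means were -3.57 ± 0.17 in Dll1-5 and -4.22 ± 0.28 in Dll1-3. Both probes were well above background in both channels of all 4 arrays and were not saturated, so both sides of each ratio were measured. The offset of 50 is a larger share of the dim mutant signals than of the wild-type ones. The adjusted p of Cntn1 was 0.0755 (limma), the smallest reached by any gene and a value shared with others, among them Vcam1, Lrig1 and Sdk1. Its unadjusted p was 0.00137 (limma), which was not the lowest, as Vcam1 had 0.000142. Over 18 alternative settings the adjusted p of Cntn1 (limma) ran between 0.0002 and 0.103, and it was under 0.05 in 8. The 0.0002 came from taking the 4 arrays as separate samples, which treats technical arrays of a line as independent. The adjusted p was 0.0389 with an offset of 10 and 0.046 with the scanner software's ratio. It was 0.0868 with median centring and 0.103 with the deposited value table. It was 0.0272 without Dll1-3 replicate 1 and 0.0263 without Dll1-5 replicate 2, and above 0.05 without either other array. Leaving out an array means that the dyes no longer cancel in its line. Cntn1 was also the only one of the 8 genes at least 2-fold lower on all 4 arrays, where 2.75% of genes were lower by this measure and 4.44% lower or higher.

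The signals in mutant and wild-type RNA show that the wild-type values of these probes were alike on the arrays of both lines, so that the line differences lie in the mutant channel.

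**Figure D2:**
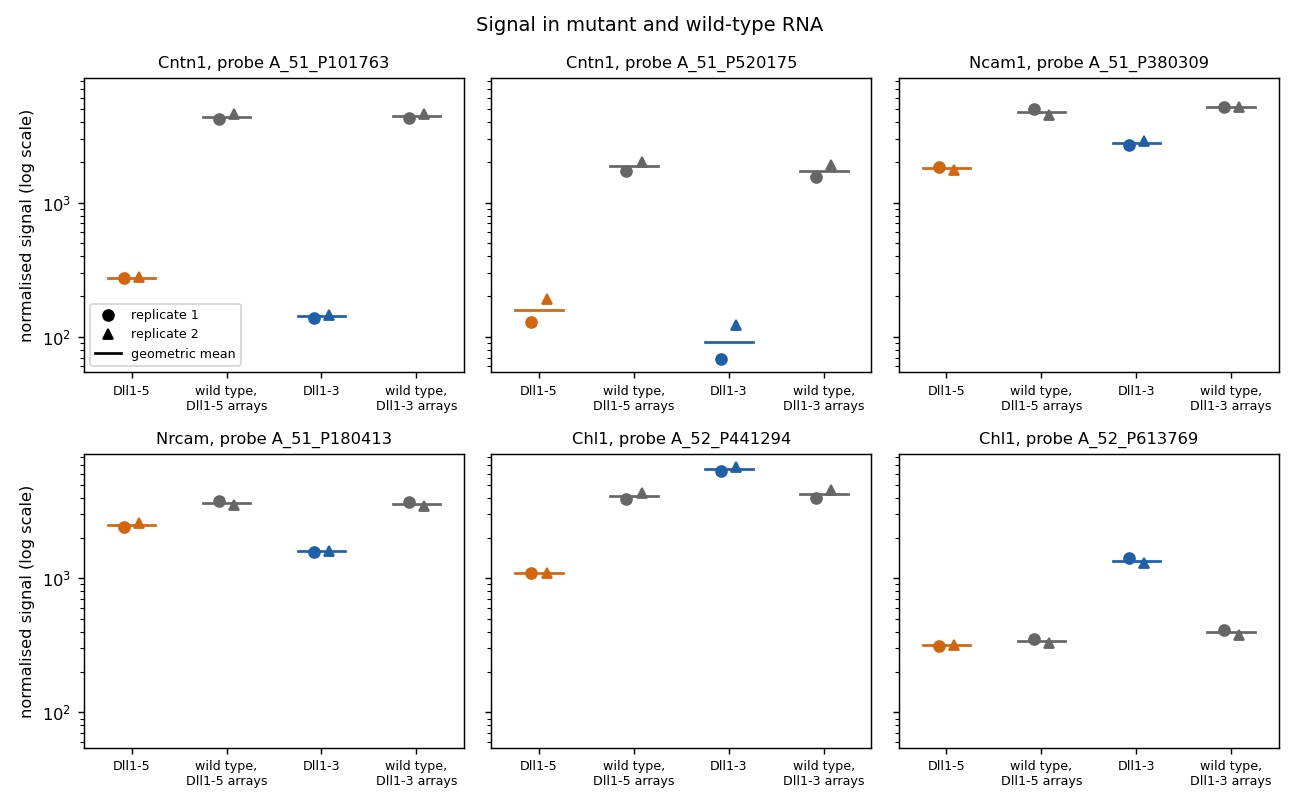
Normalised signal on a log axis is plotted for the brighter probes of Cntn1, Ncam1, Nrcam and Chl1, with each mutant line left of the wild-type RNA of the same arrays; symbols are arrays and bars geometric means. Mutant Cntn1 signals (A_51_P101763) lie between 139 and 277 and wild-type ones between 4167 and 4606, while Chl1 (A_52_P441294) reads 1097 in Dll1-5 and 6304 or 6701 in Dll1-3, against 3893 to 4541 in wild-type RNA.

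RefSeq promoter windows on GRCm38.p6, which run 250 bases upstream to 50 bases downstream of a start, were found for 8 of the 9 symbols (all but Ncam1), with 12 windows in all. They were searched on both strands for TGGGAA, a core of the site bound by the Notch effector RBPJ. The longer form CGTGGGAA, which contains it, was searched too, as were the N-box CACNAG and the E-box CANNTG. Hes and Hey repressors, which act downstream of Notch, are among the factors that bind such boxes, and CANNTG is not particular to them. TGGGAA was in 0 of the 12 windows and in 25.6% of 32851 windows of all genes, and CGTGGGAA in 0 and in 0.734%. CACNAG was in 8 of the 12 (66.7%) and in 42.5% of all windows, and CANNTG in 8 (66.7%) and in 72.3%. A match describes the letters only, and several windows belong to one gene. The windows of Cntn1, the gene with the lowest ratio, are shown for its 3 starts, which lie far apart, with CACNAG and CANNTG matches on either strand in capitals. The first start has 1 CACNAG, the second 1 CANNTG and the third neither.
Cntn1, chr15:92050915-92051214, plus strand: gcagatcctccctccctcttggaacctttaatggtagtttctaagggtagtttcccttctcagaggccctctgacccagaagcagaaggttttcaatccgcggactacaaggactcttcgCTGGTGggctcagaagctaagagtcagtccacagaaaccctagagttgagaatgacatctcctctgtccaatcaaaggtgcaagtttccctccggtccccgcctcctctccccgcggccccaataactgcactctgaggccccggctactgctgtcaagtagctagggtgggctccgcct
Cntn1, chr15:92127878-92128177, plus strand: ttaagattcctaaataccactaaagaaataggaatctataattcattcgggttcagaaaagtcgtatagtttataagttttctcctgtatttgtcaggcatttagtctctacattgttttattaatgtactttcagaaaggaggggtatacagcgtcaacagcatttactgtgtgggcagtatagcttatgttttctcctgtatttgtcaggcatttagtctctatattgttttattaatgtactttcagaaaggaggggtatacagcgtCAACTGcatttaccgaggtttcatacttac
Cntn1, chr15:92161107-92161406, plus strand: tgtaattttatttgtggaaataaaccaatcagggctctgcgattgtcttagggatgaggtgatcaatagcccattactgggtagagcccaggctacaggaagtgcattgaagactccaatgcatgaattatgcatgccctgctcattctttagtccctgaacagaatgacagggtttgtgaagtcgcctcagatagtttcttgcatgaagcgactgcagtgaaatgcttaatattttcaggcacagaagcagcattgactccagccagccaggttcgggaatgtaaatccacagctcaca

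Cntn2 encodes contactin-2, the axonal partner of Caspr2 at juxtaparanodes. Its brightest probe (A_52_P628702) gave 122 and 127 in Dll1-5 and 126 and 121 in Dll1-3, against 111 and 122 in wild-type RNA hybridised with Dll1-5 and 119 and 133 in that with Dll1-3. Mutant and wild-type values overlapped, and the line means were 0.10 ± 0.04 in Dll1-5 and -0.02 ± 0.11 in Dll1-3, with an adjusted p of 0.838 (limma). The second probe (A_52_P365732) was not well above background in wild-type RNA on any array and was so in mutant RNA on 3 of 4. Its ratios were 0.33 and -0.17 in Dll1-5 and 0.20 and -0.13 in Dll1-3, with both signs in each line, so it has no direction. The third probe (A_52_P651870) did not rise well above background on any array and did not enter the test.

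Ncam1 encodes NCAM, the homophilic adhesion molecule that carries polysialic acid on young neurons and on migrating progenitors, and whose splice forms differ in their cytoplasmic tail or have a lipid anchor. Its brightest probe (A_51_P380309, chr9:49540257-49540316 in the array annotation) gave 1853 and 1764 in Dll1-5 and 2680 and 2855 in Dll1-3, against wild-type signals of 4994 and 4486 beside Dll1-5 and 5151 and 5119 beside Dll1-3. All mutant values lay below all wild-type values, and Dll1-5 was the lower line. The line means were -1.39 ± 0.04 in Dll1-5 and -0.89 ± 0.05 in Dll1-3, and over both lines the mean was -1.14 ± 0.35 (SD, n = 2 lines; adjusted p = 0.0908, limma). Wild-type signal was 2.62-fold the mutant signal on the Dll1-5 arrays and 1.86-fold on the Dll1-3 arrays.

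There are 8 probes on Ncam1, and all were well above background in both channels of all 4 arrays. For 7 of them every array was below 0, with means over both lines between -1.39 and -0.52. The exception was A_51_P347103, which the array annotation puts on the 3′ end of the mRNA of the forms with a cytoplasmic tail. The brightest probe, A_51_P380309, is annotated to the same entry (X15052), so the annotation does not set the 2 apart. A_51_P347103 gave 784 and 944 in Dll1-5 and 658 and 835 in Dll1-3, against 725 and 904 in wild-type RNA hybridised with Dll1-5 and 737 and 990 in that with Dll1-3. Mutant and wild-type signals overlapped there, and its line means were 0.09 ± 0.02 in Dll1-5 and -0.21 ± 0.04 in Dll1-3.

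Of these, 7 have coordinates and can be put in 5′ to 3′ order, with distances counted from the most 5′ one. That first probe, on a cDNA entry (AK011905), read -1.46 ± 0.09 in Dll1-5 and -1.32 ± 0.16 in Dll1-3. At 74.87 and 95.72 kb the means over both lines were -0.52 and -0.65, and at 124.41 kb the mean was -1.37. The discordant probe lies at 134.6 kb with a mean of -0.06, between that one and the probes at 136.79 and 139.69 kb, which had means of -1.27 and -1.14. The eighth probe has no coordinates and is annotated to a sequence around the alternatively spliced exon pi; it read -1.30 in Dll1-5 and -1.21 in Dll1-3. The values thus did not run in one direction along the gene. The means of the 8 probes spanned 1.33, and 4.22% of 7629 genes with several passing probes spanned as much, where the median gene spanned 0.29.

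Ncam2 encodes the related protein OCAM, known from zones of the olfactory epithelium and its axons. Its brightest probe (A_52_P610188) was dim, at 79.5 and 86.1 in Dll1-5 and 118 and 95.9 in Dll1-3, against wild-type signals of 107 and 124 beside Dll1-5 and 169 and 147 beside Dll1-3. Mutant was below wild type on each array, although the Dll1-3 mutant value of replicate 1 exceeded a wild-type value of the Dll1-5 arrays. The ratios were close in both lines, -0.48 ± 0.05 in Dll1-5 and -0.57 ± 0.05 in Dll1-3, with a mean of -0.52 ± 0.06 (SD, n = 2 lines; adjusted p = 0.0933, limma). A second probe (A_52_P209119) had a mean of -0.74; it was not well above background in Dll1-3 RNA, so that wild-type signal was at least 1.89-fold the mutant one on those arrays. With the scanner software's ratio, which carries no offset, the mean of Ncam2 was -1.16. The third probe, A_52_P184368, did not pass the background filter.

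L1cam, the founding member of the L1 family and a driver of axon growth, is measured by 1 probe (A_51_P139410, chrX:68515695-68515754 in the array annotation). It gave 91.9 and 79.5 in Dll1-5 and 97.2 and 85.5 in Dll1-3, against 73.5 and 89.0 in wild-type RNA hybridised with Dll1-5 and 86.9 and 87.0 in that with Dll1-3. The groups overlapped. The mean was 0.07 (adjusted p = 0.623, limma), and its sign turned to -0.05 without Dll1-5 replicate 1.

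Chl1, the close homologue of L1 known for neurite growth and for the placement of cortical neurons, was the member that differed most between the lines. Its brightest probe (A_52_P441294, chr6:104212703-104212762 in the array annotation) gave 1097 on both Dll1-5 arrays and 6304 and 6701 in Dll1-3, against wild-type signals of 3893 and 4342 beside Dll1-5 and 3958 and 4541 beside Dll1-3. Dll1-5 lay below and Dll1-3 above every wild-type value. Wild-type signal was 3.75-fold the mutant signal on the Dll1-5 arrays, where the log2 ratio was -1.91 ± 0.08. Mutant signal was 1.53-fold the wild-type one on the Dll1-3 arrays, where it was 0.62 ± 0.06. Dll1-5 minus Dll1-3 was -2.52, the 23rd lowest such difference of 23106 genes. With 1 sample per line this difference has no replicate check and was not tested. Chl1 was the 1 of the 8 genes with both arrays of one line above 0 and both of the other below, as were 10% of all genes. It was also the 1 gene whose Dll1-5 mean was at least 2-fold below its Dll1-3 mean with no overlap of arrays, as were 1.66% of all genes.

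The second Chl1 probe (A_52_P613769, RefSeq NM_007697) gave 315 and 317 in Dll1-5 and 1419 and 1290 in Dll1-3, against 354 and 330 in wild-type RNA hybridised with Dll1-5 and 414 and 378 in that with Dll1-3. Here Dll1-5 stood just below the wild-type values and Dll1-3 well above them, with line means of -0.11 ± 0.06 in Dll1-5 and 1.78 in Dll1-3, where the mutant signal was 3.42-fold the wild-type one. Both probes thus put Dll1-5 below Dll1-3, by -2.52 and -1.89, while they differed in where each line stood against wild type. They lie 84 and 87.54 kb downstream of the third probe (A_52_P593805), which was dim, at 84.1 to 97.6 in mutant and 105 to 121 in wild-type RNA, and read -0.34 in Dll1-5 and -0.20 in Dll1-3. The means of the 3 probes spanned 1.48, as much as 3.05% of genes with several probes. The adjusted p over both lines was 0.68 (limma). The single RefSeq promoter window of Chl1 is shown because the gene stands apart between the lines; it holds none of the motifs searched.
Chl1, chr6:103510626-103510925, plus strand: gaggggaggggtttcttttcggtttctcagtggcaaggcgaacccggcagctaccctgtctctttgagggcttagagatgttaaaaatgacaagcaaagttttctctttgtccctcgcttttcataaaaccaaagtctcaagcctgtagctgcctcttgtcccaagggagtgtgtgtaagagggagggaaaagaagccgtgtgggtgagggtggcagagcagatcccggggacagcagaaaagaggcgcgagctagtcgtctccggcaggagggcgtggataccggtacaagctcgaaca

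**Figure D3:**
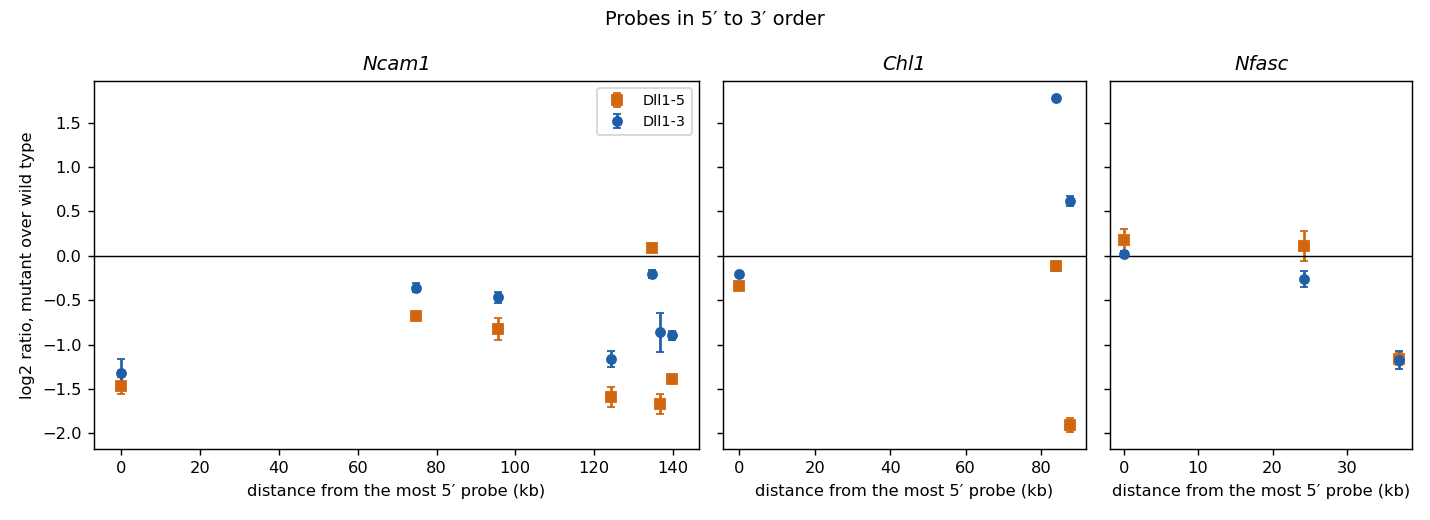
Line means of the log2 ratio, with bars to the 2 arrays, are plotted against the distance in kb from the most 5′ probe for Ncam1, Chl1 and Nfasc. The Ncam1 probe at 134.6 kb lies near 0 between lower neighbours, the Chl1 probes at 84 and 87.54 kb separate the lines, and only the most 3′ Nfasc probe lies near -1.17.

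Nrcam and Nfasc encode NrCAM and neurofascin, which gather with ankyrin G at nodes of Ranvier and at the start of the axon. Nrcam gave 2419 and 2570 in Dll1-5 and 1567 and 1609 in Dll1-3 at its brightest probe (A_51_P180413, RefSeq NM_176930, chr12:41346128-41346187 in the array annotation). The wild-type signals were 3777 and 3504 beside Dll1-5 and 3713 and 3456 beside Dll1-3. Mutant and wild-type values did not overlap, and Dll1-3 was the lower line. The line means were -0.54 ± 0.10 in Dll1-5 and -1.17 ± 0.07 in Dll1-3, with a mean of -0.86 ± 0.44 (SD, n = 2 lines; unadjusted p = 0.0329 and adjusted p = 0.146, limma). The other two probes were lower on all 4 arrays too. One of them, A_51_P306247, gave 228 and 248 in Dll1-5 and 92.3 and 131 in Dll1-3, against 427 to 494 in wild-type RNA, with line means of -0.97 ± 0.03 in Dll1-5 and -2.00 ± 0.21 in Dll1-3. All 3 Nrcam probes thus had the lower mean in Dll1-3, the third (A_52_P148222) at -0.69 in Dll1-5 and -0.97 in Dll1-3. The one RefSeq promoter window of Nrcam is shown because all its probes, like both of Cntn1, were lower and had the lower mean in Dll1-3; it holds 1 CANNTG, in capitals.
Nrcam, chr12:44328635-44328934, plus strand: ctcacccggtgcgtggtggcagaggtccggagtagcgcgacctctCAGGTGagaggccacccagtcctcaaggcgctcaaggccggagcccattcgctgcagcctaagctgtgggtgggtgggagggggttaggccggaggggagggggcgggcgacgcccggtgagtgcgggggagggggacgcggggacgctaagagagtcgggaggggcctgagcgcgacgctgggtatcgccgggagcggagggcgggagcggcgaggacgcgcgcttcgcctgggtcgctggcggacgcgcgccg

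Nfasc differed by probe. The brightest (A_51_P309347, the most 5′) gave 210 and 246 in Dll1-5 and 212 and 203 in Dll1-3, against wild-type signals of 202 and 199 beside Dll1-5 and of 204 on both arrays of Dll1-3. These values overlapped, and the mean was 0.10 (adjusted p = 0.563, limma). The probe 24.2 kb downstream had a mean of -0.07. The most 3′ probe (A_52_P331824), 36.93 kb downstream, gave 70 and 89.7 in Dll1-5 and 66.1 and 82.7 in Dll1-3, against wild-type signals of 164 and 190 beside Dll1-5 and 160 and 174 beside Dll1-3. There every mutant value was below every wild-type value, the line means were -1.16 ± 0.07 in Dll1-5 and -1.17 ± 0.10 in Dll1-3, and wild-type signal was 2.24-fold the mutant one. The means of the 3 probes spanned 1.27, as much as 4.73% of genes with several probes. When all passing probes of a gene were averaged, Nfasc turned from a mean above 0 to -0.38.

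Alcam, a homophilic adhesion molecule of axons and endothelium that also binds CD6 on T cells, has 1 probe (A_51_P359272). It gave 190 and 171 in Dll1-5 and 195 and 218 in Dll1-3, against 249 and 248 in wild-type RNA hybridised with Dll1-5 and 235 and 253 in that with Dll1-3. Mutant values were all below wild-type ones, by a small amount. The line means were -0.47 ± 0.08 in Dll1-5 and -0.24 ± 0.03 in Dll1-3, with a mean of -0.35 ± 0.16 (SD, n = 2 lines; adjusted p = 0.182, limma).

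Counted by probe, 14 of the 22 passing member probes were below 0 on all 4 arrays, against 25.6% of all passing probes, and 6 were at least 2-fold lower on all 4, against 2.25%. In 3 probes both arrays of one line were above 0 and both of the other below, against 10.1% of all probes. None was above 0 on all 4 arrays, where 23.9% of all probes were. Of the 22, 8 are on Ncam1, so these are not independent. Over the 8 genes the median log2 ratio was -0.44 (-0.47 in Dll1-5 and -0.13 in Dll1-3), with single genes between -4.48 and 0.10, while the median of all genes was 0.01. From the lowest mean to the highest, the 9 genes were Cntn1, Ncam1, Nrcam, Chl1, Ncam2, Alcam, Cntn2, L1cam and Nfasc. Array values of neighbours in this order overlapped, except between Cntn1 and Ncam1 and between Alcam and Cntn2. The order depended on the probe rule. Chl1 was at -0.64 for the brightest probe and -0.03 for the mean of all passing probes, which moves it behind Ncam2, Alcam and Nfasc. With the mean of all passing probes Nrcam, at -1.06, came before Ncam1, at -0.96. Nfasc, at -0.38, then moved from last to just before Alcam, at -0.35. For 3 of the 8 genes both Dll1-5 arrays were below both Dll1-3 arrays (Ncam1, Chl1 and Alcam), against 24.5% of all genes.

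**Figure D4:**
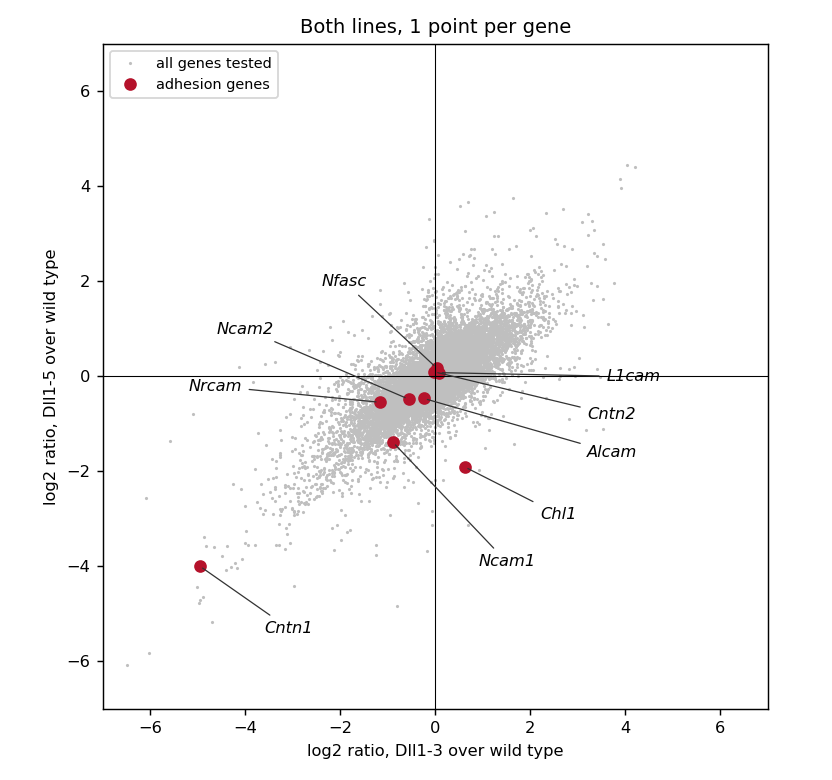
Each point is a gene, with the Dll1-3 mean log2 ratio of mutant over wild-type RNA on the horizontal axis and the Dll1-5 mean on the vertical axis; grey points are all genes tested and red points the 9 adhesion genes. Cntn1 lies at the lower left, Chl1 right of 0 and below it, and Cntn2, L1cam and Nfasc at the centre.

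The genes with ratios nearest to those of Cntn1 over the 4 arrays, by Euclidean distance, were Ttyh1, a membrane protein of neural cells, at a distance of 0.62, Agt, which encodes angiotensinogen, at 0.66, and Apcdd1, an inhibitor of Wnt signalling, at 0.73. Their means over both lines were -4.20, -4.73 and -4.13.

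Of 41 other neural adhesion genes of the immunoglobulin superfamily, 38 were tested. At an unadjusted p under 0.05, 12 were lower, where 15.5% of all genes were, and 3 higher, where 12% of all genes were. None passed after adjustment. The median log2 ratio of the 38 was -0.08. Vcam1, a receptor for integrins that is also found on neural stem cells, had line means of -3.56 ± 0.30 in Dll1-5 and -3.80 ± 0.07 in Dll1-3 (adjusted p = 0.0755, limma), while its other probes had means of -0.32 and -0.07. Among genes with a value on all 4 arrays, next in size were Lrig1, a restrainer of EGF receptor signalling, with a mean of -2.48, and Sdk1, a homophilic adhesion molecule of retinal synapses, with -2.07. Dscam, known for the self-avoidance of neurites, read -2.10 in Dll1-5 and -0.86 in Dll1-3, and Lsamp, an anchored protein of limbic neurons, averaged -1.25; a second probe of each read 0.03 and -0.14. Cadm2, a synaptic adhesion molecule named after its values were seen, lacked 1 Dll1-3 array; it read -2.60 and -2.04 in Dll1-5 and -2.71 on the other Dll1-3 array, a mean of -2.52, with mutant RNA well above background on 2 arrays.

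Among 38 partners and adaptors of these molecules, 37 were tested. At an unadjusted p under 0.05, 17 were lower, where 15.5% of all genes were, and 1 higher, where 12% of all genes were. None passed after adjustment. The 17 include Ptprz1, a receptor phosphatase that binds contactin-1. Its brightest probe was saturated in both RNAs on all 4 arrays, so that no ratio can be given from that probe. It read -2.03 and 0.96 in Dll1-5 and -2.37 and 0.64 in Dll1-3. On Ptprz1, 4 probes passed the filter, and the values of the others are not given here. Without Ptprz1, 16 of 36 genes were lower, with a median of -0.31. The median of the 37 was -0.35, and 8 of them were at least 2-fold lower on all 4 arrays, against the 2.75% of all genes. Neurocan (Ncan), a matrix proteoglycan that binds NCAM and L1, had line means of -4.42 in Dll1-5 and -2.98 in Dll1-3 (adjusted p = 0.0792, limma). Ptprg, a receptor phosphatase that binds contactins, had a mean of -2.90 at a probe measured in mutant RNA on 3 of 4 arrays, and -0.18 at its other probe. Prnp, the prion protein and a partner of NCAM, averaged -2.64, Bcan, which encodes the proteoglycan brevican, -2.06, and Agrn, which encodes agrin, -2.04, with 0.03 and -0.26 at the other Agrn probes. App, the amyloid precursor, which lacked 1 Dll1-5 array and was named after its values were seen, averaged -2.34 at its brightest probe. The other App probes averaged -0.73, -0.27 and -0.10.

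Markers of cell types were counted in the same fit, and none passed after adjustment; at an unadjusted p under 0.05, 15.5% of all genes were lower and 12% higher. Of 10 neuron markers, 6 were lower at an unadjusted p under 0.05 and none higher, with a median log2 ratio of -1.06, and their summed signal was 3252 to 6361 in mutant RNA, against 15120 to 15710 in wild-type RNA. Most of that sum is Map2, a dendrite protein gene; the other 9 summed to 1254 to 1424 in mutant RNA, against 2481 to 2747 in wild-type RNA. Rbfox3, Snap25, Stmn2 and Nefl averaged 0.08, 0.09, 0.00 and 0.06. Of 8 astrocyte markers 5 were lower, with a median of -1.21 and a sum of 13610 to 18670 in mutant RNA, against 41650 to 44990 in wild-type RNA. The others, S100b, Gfap and Aqp4, averaged -1.20, -0.54 and 0.08. Slc1a3 and Gja1 had the lower mean in Dll1-5 and all other astrocyte markers in Dll1-3. For the oligodendrocyte lineage 3 of 8 were lower and 1 higher (Cspg4 at 2.59), with a median of -0.35. The median of this list was -0.0004 in Dll1-5 and -0.50 in Dll1-3. Its sum was 19310 to 36900 in mutant RNA, against 36130 to 39330 in wild-type RNA. The neuron and astrocyte sums of the groups did not overlap, while those of the 8 oligodendrocyte lineage markers did. Most of the latter sum is Olig1, at 27780 and 25010 in Dll1-5 and 12960 and 11790 in Dll1-3, against 25530 to 28000 in wild-type RNA. Without Olig1 the other 7 summed to 6838 to 9531 in mutant RNA, against 10220 to 11330 in wild-type RNA. These sums did not overlap. In the neuron list 8 of 10 markers were well above background on all 4 arrays in mutant RNA, as were 8 in wild-type RNA.

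Neural stem cell markers were measured in both groups: 3 of 8 were lower at an unadjusted p under 0.05 (Pax6 at -2.57, Sox2 at -1.46 and Vim at -0.45), and the summed signal of the 8 was 55800 to 79530 in mutant RNA, against 85010 to 99160 in wild-type RNA. Nes, which encodes nestin, averaged -0.71 with an unadjusted p of 0.0867 (limma). Fabp7, Sox1, Msi1 and Prom1 averaged -0.26, -0.14, -0.13 and 0.09, and Fabp7 read 0.23 in Dll1-5 and -0.74 in Dll1-3. Much of the stem cell sum is Fabp7, at 21290 to 45190 in mutant RNA and 32600 to 42110 in wild-type RNA. Its probe was saturated in mutant RNA on 1 array. Without Fabp7 the other 7 summed to 34340 to 40050 in mutant RNA, against 52410 to 57060 in wild-type RNA. Endothelial markers summed to 258.1 to 313 in mutant RNA, against 259 to 312.7 in wild-type RNA, with 1 of 3 tested genes lower. Markers of microglia and blood summed to 352.9 to 383.1 in mutant RNA, against 349.3 to 389.9 in wild-type RNA, with none of 4 lower or higher. Those of fibroblasts and mural cells summed to 3373 to 3628, against 5592 to 5835 in wild-type RNA, with 1 of 5 lower. That gene was Acta2, which encodes smooth muscle actin, at -0.82; the other 4 summed to 511.4 to 540.3 in mutant RNA, against 479.1 to 518.3 in wild-type RNA. Those of neural crest and Schwann cells summed to 1971 to 2511, against 1053 to 1112 in wild-type RNA, with 1 of 4 higher (Pmp22, a myelin protein gene, at 2.01). The part of these markers in the ratios of the adhesion genes was not tested, and in RNA of whole cultures fewer cells of a type and less RNA per cell cannot be told apart.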

How the data were processed

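RNA of mutant and wild-type neurospheres was measured on 4 two-colour Agilent arrays, extracted with a QIAGEN RNeasy kit and amplified linearly, per the labels' protocols. Scanner files came from Agilent Feature Extraction 8.1.1.1, per the submitters' processing notes; the mean and background intensity of each spot were used as deposited. Dye directions follow the labels. Backgrounds were corrected with normexp (offset 50) and arrays with loess (span 0.3); signals were further scaled with Aquantile (limma 3.58.1, R 4.3.3). Control spots and outlier flags were left out. A probe passed if, in at least one line, either RNA exceeded background clearly on both arrays, and the brightest passing probe stood for its gene. The arrays of a line were averaged, and line means were tested against 0 (limma, 1 residual and 1.64 prior degrees of freedom). The deposited log10 ratio of the scanner software was an alternative, as was the authors' deposited value table. That table holds log10 ratios by its slope against the scanner's; its centring is not stated. It correlated at -0.962 to -0.954 with mutant over wild type across genes, so its direction is wild type over mutant; the medians of its columns were -0.03 to 0.01. Members, lists and tests were chosen with earlier results of these data known. Genes named beyond the members were the 5 per related list with the largest absolute mean among those of one sign on all 4 arrays, and the 3 nearest to Cntn1. Scripts were tested on simulated data. Alternatives were other backgrounds, normalisations, filters, probe rules, fits and left-out arrays. The number of arrays limits the precision.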

Additional observations from a re-analysis of the deposited data

Results flagged for a closer look

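Probes whose arrays all moved one way in one line and the opposite way in the other were singled out; the differences between the lines were not tested, since each line is 1 sample. The log2 ratio of Chl1 probe A_52_P441294 in Dll1-5 minus that in Dll1-3 was -2.52, and that of Chl1 probe A_52_P613769 was -1.89. For Ncam1 probe A_51_P347103 the same difference was 0.29, at the one Ncam1 probe with signals near those of wild-type RNA. Opposite signs of this kind occurred in 3 of the 22 passing member probes and in 10.1% of all passing probes.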

How the results depend on the processing

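With 2 lines and 1 residual degree of freedom, the adjusted test called 0 members and 0 genes in all (limma), 3 members and 6344 genes having an unadjusted p under 0.05. Other settings gave other counts of members and of all genes. Called members numbered 1 with a normexp offset of 10 (993 genes), 1 with the scanner software's log ratio (336 genes), and 2 with an intensity trend in eBayes (1204 genes). Leaving out 1 array at a time gave 0 to 1 called members: Cntn1 was called without Dll1-3 replicate 1 (1678 genes) and without Dll1-5 replicate 2 (1645 genes). With the 4 arrays as separate samples, which treats technical arrays of a line as independent, 4 members were called with no replicate block (7728 genes), 4 with the replicate block (6683 genes) and 4 where lines entered as random blocks (6613 genes). The replicate number is the dye orientation and pairs no cultures; across 22915 genes the difference of replicate 1 minus replicate 2 correlated between the lines at 0.702, and genes are not independent. The mean of all passing probes per gene gave 5 members with an unadjusted p under 0.05. The share of all genes under that probe rule was not counted, and it was 27.5% with the brightest probe. Signs turned for Cntn2 (-0.001 with median centring, and -0.0195 to 0.0922 without 1 array, the lowest without Dll1-3 replicate 1), Nfasc (-0.38 with the mean of all probes) and L1cam (-0.0469 to 0.1948 without 1 array, the lowest without Dll1-5 replicate 1). Over all 18 alternatives Cntn1 stayed between -4.99 and -4.19, Ncam1 between -1.17 and -0.86, Nrcam between -1.06 and -0.61, Ncam2 between -1.16 and -0.46, Alcam between -0.49 and -0.32, and Chl1 between -0.68 and -0.03 (-0.36 with median centring). Chl1 in Dll1-5 minus Dll1-3, an alternative set chosen after seeing the data, stayed between -2.87 (median centring) and -1.51 (mean of all probes). The cause of these shifts was not tested. Dim probes limit Ncam2, Cntn2 and L1cam, whose signals lay near the added offset.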
